A study of Mus musculus with 32 samples.

Results

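Chemokines and macrophage growth factors are the secreted or membrane-bound signals that call leukocytes into tissue and keep macrophages alive there. The group described here was 10 of the 32544 genes in the raw count table, chosen by symbol and followed across all 32 mice: the chemokine ligands *Ccl2*, *Ccl5*, *Cxcl1*, *Cxcl10*, *Cxcl16* and *Cx3cl1*, the growth factors *Il34* and *Csf1*, and the chemokine receptors *Ccr2* and *Cx3cr1*. Poly(A) RNA was sequenced from kidney cortex of mice aged 25 weeks on the C57BL/6J-Col4a3tm1Dec strain, in 8 groups of 4 mice. Alport mice carried Col4a3-/-, which removes a chain of the collagen network of the glomerular basement membrane, and control mice carried Col4a3+/-, so every mouse lacked at least 1 working copy. Males and females of each genotype received vehicle or nicotinamide riboside (NR), a precursor of NAD+, mixed into a purified diet. The study asked how Alport kidney disease and NR changed the renal transcriptome in each sex.

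Monocytes leave the circulation along gradients of chemokines, and the receptor that each leukocyte carries decides which gradient it follows. CCL2 acts through CCR2 on inflammatory monocytes, CX3CL1 (fractalkine) is a membrane-anchored ligand that holds CX3CR1-bearing cells, and CCL5, CXCL10 and CXCL16 act mainly on T cells and monocytes, whereas CXCL1 draws neutrophils through CXCR2. CSF1 and IL-34 are both ligands of CSF1R, the receptor on which macrophages depend for survival. In injured kidney, tubular epithelial cells are a known source of CCL2, CSF1 and IL-34.

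Libraries held 16621944 to 27778797 counts (median 22071395), and levels are given as CPM, read counts divided by library size after scaling by the trimmed mean of M values (TMM). *Col4a3* mRNA, whose gene-level counts can include exons outside the deletion, ranged from 48.8 to 83.2 CPM across Alport mice and from 59.3 to 201 CPM across controls, and the NR-treated male controls at 59.3 and 75.2 CPM lay inside the Alport range. The log2 CPM of *Col4a3* minus that of *Col4a4* separated the genotypes, running from -1.77 to -1.28 over 16 Alport mice and from -0.90 to -0.28 over 16 controls. Proximal tubule markers (12 genes) summed to 12300 to 19700 CPM in the 16 controls. In control males the sums were 17100 to 19700 CPM on vehicle and 12300 to 17700 CPM on NR. In Alport males they were 6850 to 10900 CPM on vehicle, and on NR 5830, 13600, 4240 and 13300 CPM in replicates 1 to 4. Sums in Alport females were 7120 to 10900 CPM on vehicle and 8430 to 10400 CPM on NR. The part of tissue mix in the NR results was not tested. Several libraries lay at an edge of their group in at least 7 of the 10 genes. Replicate 2 of the vehicle-treated Alport males and of the NR-treated control males was highest in 8. Vehicle-treated Alport male replicate 4 and NR-treated Alport male replicate 3 were lowest in 7. Vehicle-treated control female replicate 3 was highest in 10, vehicle-treated Alport female replicate 2 and NR-treated Alport female replicate 4 were lowest in 9, and NR-treated male Alport replicate 1 was highest in 9. The last also stood apart in its markers, with macrophage markers (17 genes) summing to 1190 CPM against 298 to 483 CPM in the other 3 mice. Calls of the 10 genes by edgeR for NR in Alport mice are given with and without it. Medians over the 10 genes, and counts of markers and other ligands called under NR, are given only with it.

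**Figure D1:**
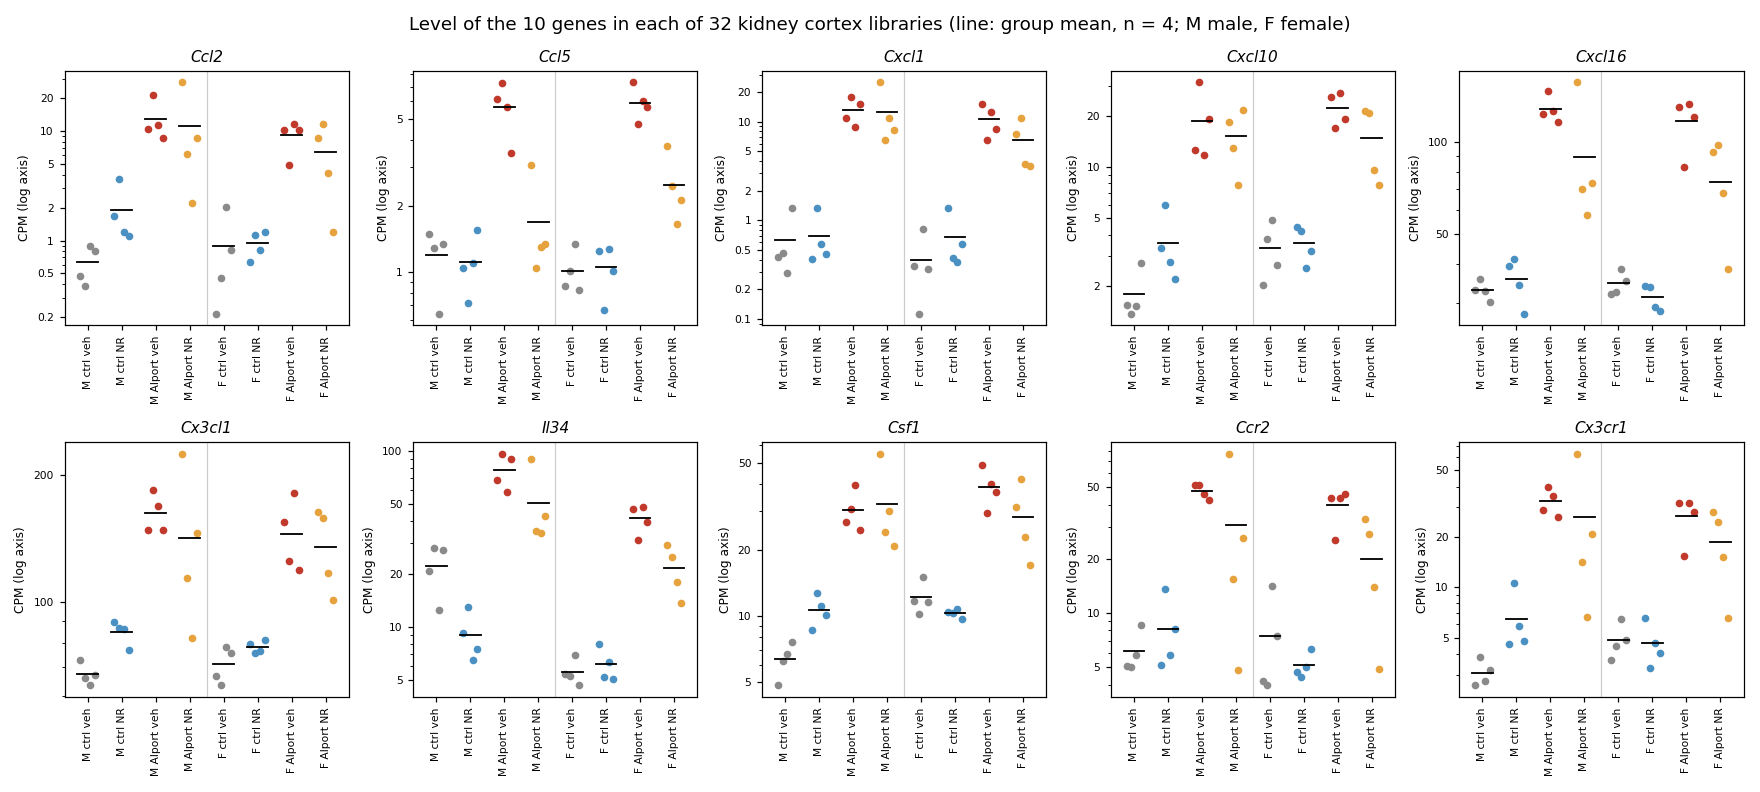
Level of each gene in every mouse, in CPM on a log axis that differs between panels, for males (left of the line) and females (right), with the mean of 4 mice as a black bar. On vehicle every Alport mouse lies above every control mouse in all 10 panels, and the NR-treated male Alport group spreads widely, from 4.83 to 76.9 CPM for Ccr2.

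All 10 genes were higher in vehicle-treated Alport mice than in vehicle-treated controls, in males and in females. In each sex all 10 passed an adjusted p of 0.05 in edgeR's quasi-likelihood test with Benjamini-Hochberg adjustment over all genes tested, where the share of all genes called was 51% among 15286 tested for males (26.8% higher) and 45.8% among 15709 tested for females (24% higher). Values of the groups did not overlap for any of the 10 genes in either sex, a pattern that 22.1% of genes showed in the higher direction in males and 20.7% in females. The median log2 fold change over the 10 genes was 2.70 in males and 2.54 in females, beside 0.00 over all genes tested in each sex. In bulk tissue more cells of a type and more RNA per cell cannot be told apart, nor fewer cells and less RNA per cell. Of 17 macrophage markers, 15 rose with them in males, while in females 14 rose and *Mertk* fell (log2 -0.29, edgeR adjusted p = 0.00551), and their summed level went from 138 to 150 CPM in vehicle-treated control males to 627 to 825 CPM in Alport males, and from 152 to 229 CPM to 501 to 887 CPM in females. The part of these cells in the levels below was not tested.

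*Ccl2* (chromosome 11, 82035577 to 82037452, GRCm38) encodes the principal attractant of inflammatory monocytes. In males it was 0.385, 0.478, 0.809 and 0.888 CPM in vehicle-treated controls and 8.67, 10.5, 11.4 and 21.3 CPM in Alport mice. In females it was 0.214, 0.451, 0.823 and 2.04 CPM in controls and 4.90, 10.2, 10.3 and 11.7 CPM in Alport mice. The lowest Alport mouse of each sex was therefore above the highest control, although control values rested on only 5 to 52 counts a library. The rise was 21.5-fold in males (log2 fold change 4.42, SE 0.35, adjusted p = 1.51e-06) and 10.6-fold in females (3.41, SE 0.50, adjusted p = 0.000377, both edgeR). *Ccr2* (chromosome 9, 124101918 to 124109140), the receptor for CCL2, was 5.0, 5.05, 5.87 and 8.61 CPM in control males and 42.2, 46.0, 51.3 and 51.4 CPM in Alport males. In females it was 3.98, 4.20, 7.41 and 14.2 CPM in controls and 25.4, 43.5, 43.8 and 45.9 CPM in Alport mice, with control replicate 3 and Alport replicate 2 as the mice nearest each other. Its log2 fold change was 3.04 (SE 0.16, adjusted p = 6.41e-08) in males and 2.44 (SE 0.37, adjusted p = 0.000443) in females by edgeR.

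*Cx3cl1* (chromosome 8, 94772180 to 94782427), which encodes the membrane-anchored chemokine fractalkine, changed least of the 10 genes in both sexes. It was 63.6, 66.1, 67.0 and 72.8 CPM in control males and 148, 148, 169 and 184 CPM in Alport males. In females it was 63.7, 66.9, 75.9 and 78.3 CPM in controls and 119, 125, 155 and 181 CPM in Alport mice. The spread within each control group was narrow, so that a 2.56-fold rise in males (log2 1.35, SE 0.09, adjusted p = 3.63e-07) and a 2.09-fold rise in females (log2 1.06, SE 0.13, adjusted p = 0.000156) passed the edgeR test. Its receptor *Cx3cr1* (chromosome 9, 120048683 to 120068296), a marker of resident macrophages and patrolling monocytes, rose further. *Cx3cr1* was 2.60 to 3.80 CPM in control males and 26.4 to 40.0 CPM in Alport males, and 3.68 to 6.43 CPM in control females and 15.3 to 32.1 CPM in Alport females. Its log2 fold change was 3.48 (SE 0.17, adjusted p = 3.70e-08) in males and 2.50 (SE 0.25, adjusted p = 4.86e-05) in females by edgeR. The sheddases that release CX3CL1 and CXCL16 from the cell surface moved little, with *Adam10* at 0.39 (adjusted p = 0.000515) for males and 0.46 (adjusted p = 0.000883) for females, and *Adam17* at 0.39 (adjusted p = 0.00308) and 0.30 (adjusted p = 0.0218), in log2 fold change by edgeR.

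*Cxcl1* (chromosome 5, 90891245 to 90893121), a neutrophil attractant, and *Cxcl10* (chromosome 5, 92346638 to 92348889), an interferon-induced ligand of CXCR3, were low in controls. Their promoters are shown because both are textbook targets of inflammatory transcription factors. The RefSeq (GRCm38.p6) promoter set used here held 6 of the 10 genes and lacked *Ccl2*, *Ccl5*, *Cxcl16* and *Il34*, which were not searched. For each of the 6, the 250 bases before the given transcript start were searched (for *Ccr2* a start inside the gene interval above). Both strands were searched for the NF-kappaB consensus, the interferon-stimulated response element (GAAA, any 2 bases, GAAA) and the AP-1 site (TGANTCA). The TATA box (TATAAA) was searched on the gene's strand, and matches are in capitals.
Cxcl1 (chr5:90890995-90891244, plus strand): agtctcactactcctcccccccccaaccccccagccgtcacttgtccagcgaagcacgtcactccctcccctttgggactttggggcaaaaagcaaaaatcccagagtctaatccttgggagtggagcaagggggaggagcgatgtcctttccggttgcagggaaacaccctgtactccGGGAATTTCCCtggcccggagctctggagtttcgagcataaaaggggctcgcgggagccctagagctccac
Cxcl10 (chr5:92348890-92349139, minus strand): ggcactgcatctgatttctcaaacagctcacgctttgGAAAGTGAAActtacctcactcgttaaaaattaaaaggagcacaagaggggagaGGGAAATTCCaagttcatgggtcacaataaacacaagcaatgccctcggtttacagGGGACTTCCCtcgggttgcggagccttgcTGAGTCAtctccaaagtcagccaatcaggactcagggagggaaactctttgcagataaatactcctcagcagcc
*Cxcl1* held an NF-kappaB match at -71 to -62 that overlapped another on the opposite strand at -70 to -61, counted from the start site. *Cxcl10* held NF-kappaB matches at -159 to -150 and -103 to -94, an interferon-stimulated response element at -213 to -204 and an AP-1 site at -74 to -68. Of 32851 RefSeq windows of this length, 3.9% held an NF-kappaB match, 2.98% an interferon-stimulated response element, 6.75% an AP-1 site and 7.59% TATAAA on the gene's strand. *Csf1* held 1 NF-kappaB match, *Cx3cl1* held only TATAAA, at -6 to -1, and these letters were found in neither the *Ccr2* nor the *Cx3cr1* window.

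*Cxcl1* was 0.296, 0.425, 0.470 and 1.33 CPM in control males, on 6 to 28 counts, and 8.89, 10.9, 15.2 and 17.6 CPM in Alport males. In females it was 0.113, 0.320, 0.343 and 0.823 CPM in controls, on 3 to 21 counts, and 6.48, 8.41, 12.4 and 15.0 CPM in Alport mice. These were the largest fitted rises of the 10 genes, at 4.45 (SE 0.37, adjusted p = 2.16e-06) in males and 4.74 (SE 0.43, adjusted p = 3.42e-05) in females in log2 fold change by edgeR. *Cxcr2*, the receptor for CXCL1, had a log2 fold change of -0.59 in males (edgeR adjusted p = 0.0498) and -0.36 in females (adjusted p = 0.197). Markers of neutrophils, the cells that carry CXCR2, were near 0, and none of the 8 genes was tested in either comparison. On vehicle they summed to 0 to 0.571 CPM in control males and 0.382 to 1.58 CPM in Alport males. In females the sums were 0.214 to 0.549 CPM in controls and 0.377 to 4.01 CPM in Alport mice. *Cxcl10* was 1.37 to 2.71 CPM in control males and 11.8 to 31.4 CPM in Alport males, and 2.01 to 4.90 CPM in control females and 17.0 to 27.0 CPM in Alport females. By sex, the rises of *Cxcl10* were 3.47 (SE 0.34, adjusted p = 8.22e-06) and 2.76 (SE 0.25, adjusted p = 3.65e-05) in log2 fold change by edgeR. Its receptor *Cxcr3* rose by 2.85 on the log2 scale for males (adjusted p = 3.14e-05) and 1.86 for females (adjusted p = 0.00749).

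*Ccl5* (chromosome 11, 83525778 to 83530518), a T cell and macrophage chemokine that T cells also make, was 0.641, 1.28, 1.33 and 1.49 CPM in control males and 3.48, 5.65, 6.12 and 7.26 CPM in Alport males. In females it was 0.823, 0.857, 1.01 and 1.33 CPM in controls and 4.71, 5.62, 6.03 and 7.32 CPM in Alport mice. The log2 fold change was 2.33 (SE 0.29, adjusted p = 4.69e-05) in males and 2.58 (SE 0.21, adjusted p = 2.26e-05) in females by edgeR. Lymphocyte markers (14 genes) summed to 5.77 to 9.56 CPM in control males and 16.6 to 34.1 CPM in Alport males, and to 8.19 to 14.8 CPM and 16.6 to 35.2 CPM in females, and their part in *Ccl5* was not tested. *Cxcl16* (chromosome 11, 70454389 to 70459984), a membrane chemokine that also binds oxidized lipid, had tight control groups. It was 30.1, 32.7, 33.0 and 35.9 CPM in control males and 116, 123, 126 and 146 CPM in Alport males. In females it was 32.1, 32.6, 35.3 and 38.6 CPM in controls and 82.6, 120, 130 and 133 CPM in Alport mice. The rises were 4.12-fold (log2 2.04, SE 0.09, adjusted p = 2.12e-08) and 3.44-fold (log2 1.78, SE 0.14, adjusted p = 1.91e-05) by edgeR, and its receptor *Cxcr6* rose by 2.68 (adjusted p = 0.000149) and 1.83 (adjusted p = 0.00259) on the log2 scale.

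**Figure D2:**
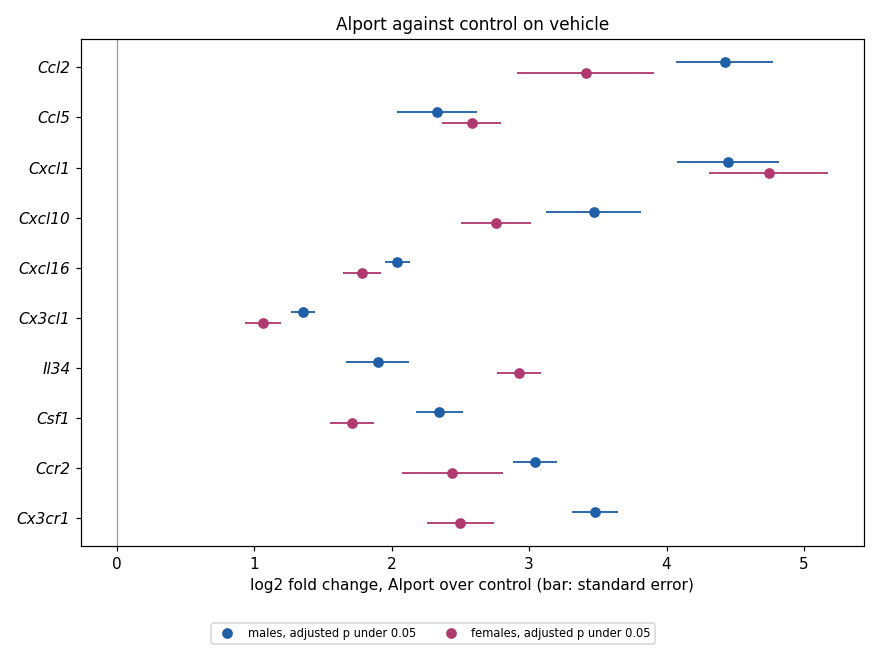
Log2 fold change of Alport over control on vehicle for each gene, males and females, with the standard error as a bar and filled points for an adjusted p under 0.05. All 20 points are filled and lie right of 0, from 1.06 for Cx3cl1 in females to 4.74 for Cxcl1 in females.

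The ligands of CSF1R started from levels that differed between the sexes. *Il34* (chromosome 8, 110741829 to 110805949) was 12.5, 20.6, 27.4 and 28.0 CPM in vehicle-treated control males and 4.66, 5.22, 5.36 and 6.90 CPM in control females, so that every male lay above every female. *Csf1* (chromosome 3, 107741048 to 107760469) showed the opposite order, at 4.84, 6.20, 6.71 and 7.57 CPM in control males and 10.2, 11.6, 11.7 and 15.1 CPM in control females. Tested after these values had been seen, *Il34* was lower in control females by a log2 fold change of -1.97 (SE 0.23, edgeR adjusted p = 9.15e-05) and *Csf1* higher by 0.96 (SE 0.16, edgeR adjusted p = 0.000929). Of 9 genes tested in that comparison 4 were called, where 31.7% of 14990 genes were called. Groups without overlap, as for *Csf1* and *Il34*, were found for 14.2% of genes in the higher and 18% in the lower direction. The other 2 were *Cx3cr1* (0.67, edgeR adjusted p = 0.0273) and *Cxcl10* (0.93, edgeR adjusted p = 0.0413), both higher in females with overlapping values, and both were lost without control female replicate 3, the highest of its group in all 10 genes (*Cx3cr1* adjusted p = 0.0846, *Cxcl10* adjusted p = 0.131), or without control male replicates 1 (0.0726 and 0.095) or 3 (0.0632 and 0.0901). *Cxcl10* was also lost without female replicate 2 (adjusted p = 0.0931) or male replicate 2 (adjusted p = 0.0991), and *Cx3cr1* without replicate 4 of the females (adjusted p = 0.0554) or the males (adjusted p = 0.0529). Tubule injury markers (8 genes) were also higher in control females, 5 of 8 called, summing to 1880 to 2470 CPM against 801 to 940 CPM in males, and their part in the difference was not tested.

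In Alport mice on vehicle *Il34* was 58.4, 67.9, 89.3 and 96.1 CPM in males and 31.2, 39.1, 46.8 and 47.6 CPM in females, still without overlap. *Il34* was lower in Alport females by -0.93 on the log2 scale (SE 0.17, edgeR adjusted p = 0.0161), the only call among the 10 genes where 3.84% of 15791 genes were called and 5.85% lay lower without overlap. This call was lost without Alport female replicate 4 (adjusted p = 0.0592) or Alport male replicate 4 (adjusted p = 0.0505). *Csf1* was 24.7, 26.7, 30.8 and 39.4 CPM in Alport males and 29.6, 36.9, 39.9 and 48.6 CPM in Alport females, which overlapped (log2 0.34, SE 0.17, edgeR adjusted p = 0.294). The Alport rise of *Il34* was 3.73-fold in males (log2 1.90, SE 0.23, adjusted p = 4.00e-05) and 7.61-fold in females (log2 2.93, SE 0.16, adjusted p = 6.43e-06), and that of *Csf1* was 5.09-fold in males (log2 2.35, SE 0.17, adjusted p = 7.73e-07) and 3.27-fold in females (log2 1.71, SE 0.16, adjusted p = 3.75e-05), all by edgeR. The receptor *Csf1r* rose by 1.30 (adjusted p = 9.24e-06) and 0.90 (adjusted p = 0.000128) on the log2 scale.

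Whether the Alport rise differed between the sexes was tested by the interaction term of sex and genotype in the 16 vehicle-treated mice. None of the 10 genes passed it by edgeR, where 0.532% of 16152 genes were called, and 3 of 10 had an unadjusted p under 0.05, as did 12% of all genes. Female minus male, the difference in log2 fold change was 0.996 for *Il34* (SE 0.31, edgeR adjusted p = 0.186), -0.67 for *Csf1* (SE 0.24, edgeR adjusted p = 0.259) and -1.01 for *Cx3cr1* (SE 0.31, edgeR adjusted p = 0.181). DESeq2 called none of the 10 either. Without control male replicate 3, which had the lowest *Il34* of its group, *Il34* passed (1.19, edgeR adjusted p = 0.0459).

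**Figure D3:**
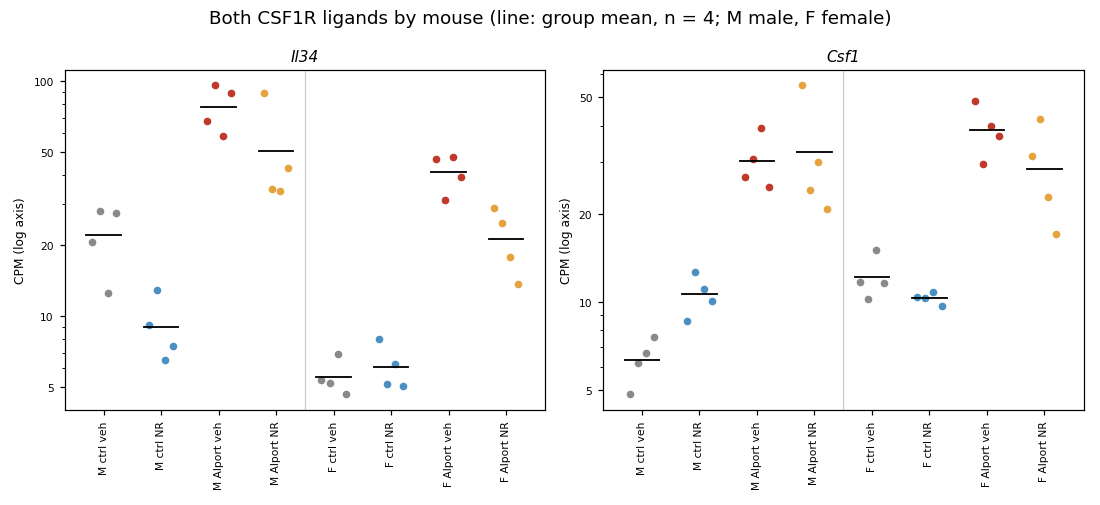
Il34 (left) and Csf1 (right) in every mouse, in CPM on log axes, with the mean of 4 mice as a black bar. In vehicle-treated controls Il34 is higher in males (12.5 to 28.0 CPM) than in females (4.66 to 6.90 CPM), Csf1 is higher in females, and NR-treated control males sit below vehicle for Il34 in all but 1 mouse and above it for Csf1 in every mouse.

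Other genes of the same pathways rose with the 10 genes in Alport mice. Among 30 other chemokine ligands, 18 of 26 tested were higher in males and 18 of 25 in females, with none lower in males and *Cxcl15* lower in females (log2 -1.26, adjusted p = 0.00432). *Cxcl2*, a neutrophil attractant near *Cxcl1*, rose by 7.80 and 5.61 on the log2 scale (adjusted p = 1.45e-06 and 9.53e-06), and *Cxcl5*, of the same kind, by 4.20 and 5.46 (adjusted p = 2.54e-06 and 0.00021). *Ccl8* rose by 5.86 and 4.93 (adjusted p = 2.14e-05 and 0.000267) and *Ccl20* by 5.47 and 4.03 (adjusted p = 6.45e-05 and 0.000232). *Cxcl2*, *Cxcl5*, *Ccl8* and *Ccl20* did not pass the filter on low counts among control mice of either sex. The sizes of their rises therefore rest on few control counts and are imprecise. Among 21 other receptors, 10 of 16 tested were higher and 1 lower in males, and 7 of 16 were higher in females. *Ccr1*, a receptor on monocytes, rose by 2.19 and 2.03 (adjusted p = 0.000701 and 0.00539). In the colony-stimulating factor axis, 6 of 8 tested genes were higher in each sex and *Mif* was lower in females, with *Csf3r*, the receptor of granulocyte colony-stimulating factor, at 2.98 and 2.80 (adjusted p = 6.97e-05 and 9.52e-05) and *Sdc1*, a syndecan that binds IL-34, at 1.87 and 1.65 (adjusted p = 6.07e-07 and 2.07e-05). *Csf2rb* (2.97 and 2.53) and *Csf2rb2* (3.20 and 2.53) are close copies whose reads may be divided between them. Of the genes that induce chemokines or shed them, 14 of 15 tested were higher in each sex, with *Tnf* at 2.92 and 2.93 (adjusted p = 0.000118 and 0.000354), *Relb*, an NF-kappaB subunit, at 2.93 and 2.40 (adjusted p = 5.52e-08 and 1.26e-05), *Tnfaip3*, a brake on NF-kappaB, at 1.98 and 1.96 (adjusted p = 9.81e-07 and 0.000128) and *Il1b* at 2.35 and 1.45 (adjusted p = 5.67e-05 and 0.0218). All pairs give males, then females, as log2 fold changes with edgeR adjusted p.

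Marker lists moved in step. The 4 macrophage markers that changed most were *Lyz2* (4.06 in males and 3.54 in females on the log2 scale), *Fcgr1* (3.62 and 2.73), *Mrc1* (3.54 and 2.89) and *Ms4a7* (3.44 and 3.17). Lymphocyte markers were higher for 10 of 10 tested in males and 9 of 11 in females, led by *Cd3g* (3.32 and 2.07), *Cd2* (2.61 and 2.18), *Cd3e* (2.40 and 1.78) and *Cd4* (2.10 and 1.87). Tubule injury markers were higher for 8 of 8 in each sex, led by *Lcn2* (6.48 and 5.21), *Havcr1* (6.43 and 5.74), *Krt20* (6.22 and 5.58) and *Vcam1* (5.03 and 4.39). Proximal tubule markers were lower for 11 of 12 in each sex, among them *Slc5a12* (-1.27 and -1.11), *Cubn* (-1.18 and -1.07), *Slc13a3* (-1.15 and -1.17) and *Lrp2* (-1.14 and -1.09). Endothelial markers, of the cells that also make CX3CL1, were higher for 9 of 10 in males and 5 of 10 in females, with *Cdh5* (1.02 and 0.72) and *Pecam1* (0.84 and 0.55) changing most.

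NR was associated with lower *Ccl5* in Alport mice, and the other 9 genes did not pass the test. *Ccl5* was 3.48, 5.65, 6.12 and 7.26 CPM on vehicle and 1.04, 1.3, 1.34 and 3.07 CPM on NR in Alport males. In Alport females it was 4.71, 5.62, 6.03 and 7.32 CPM on vehicle and 1.65, 2.13, 2.45 and 3.73 CPM on NR. Vehicle and NR values did not overlap in either sex, a pattern in the lower direction that 1.45% of genes showed in males and 4.05% in females. Over both sexes, with sex as a covariate, the log2 fold change of *Ccl5* was -1.47 (SE 0.23, edgeR adjusted p = 0.00393), a fold of 0.360, where 1.48% of 16189 genes were called and 0.42% were called lower. It was -1.39 to -1.63 with an adjusted p of at most 0.0143 under each of 21 alternatives, and -1.63 (adjusted p = 0.000621) without NR-treated male replicate 1. Within each sex alone it did not pass by edgeR, at -1.74 (SE 0.37, adjusted p = 0.524) in males and -1.24 (SE 0.25, adjusted p = 0.0787) in females, where it passed without NR-treated replicate 1 (-1.49, adjusted p = 0.0247). The summed lymphocyte markers were 16.6 to 34.1 CPM on vehicle and 11.6 to 25.1 CPM on NR in Alport males, and 16.6 to 35.2 CPM and 9.94 to 23.7 CPM in Alport females, with 0 of 13 tested markers called over both sexes, and their part in *Ccl5* was not tested.

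By sex, edgeR called 0 of the 10 genes under NR in Alport males, where 0% of 15500 genes were called. An unadjusted p under 0.05 was found for 1 of the 10 and for 5.06% of all genes, and DESeq2 called *Ccl5* alone of the 10 and 62 genes in all. In Alport females edgeR also called 0 of 10, where 0.477% of 15712 genes were called, 3 of the 10 and 16.7% of all genes had an unadjusted p under 0.05, and DESeq2 called *Ccl5* and *Il34* (2 of 10). On simulated data for this comparison DESeq2 made 39 false calls and edgeR 5. The fitted changes were negative for 10 of 10 genes in females and 9 of 10 in males, with medians of -0.61 and -0.32 beside 0.00 and 0.01 over all genes. *Il34* was 58.4 to 96.1 CPM on vehicle and 34.2, 34.8, 42.7 and 89.2 CPM on NR in males, and 31.2 to 47.6 CPM and 13.7, 17.9, 25.0 and 29.0 CPM in females, where the groups did not overlap. Its log2 fold change over both sexes was -0.78 (SE 0.20, edgeR adjusted p = 0.0653). *Cxcl16* was 116 to 146 CPM on vehicle and 58.0, 70.1, 73.3 and 156 CPM on NR in males, and 82.6 to 133 CPM and 38.7, 68.1, 92.5 and 97.4 CPM in females (over both sexes -0.57, SE 0.20, edgeR adjusted p = 0.145). *Ccr2* spread widely, at 4.83, 15.5, 26.2 and 76.9 CPM in NR-treated Alport males and 4.90, 14.0, 27.6 and 33.1 CPM in females, so that in each sex the lowest mouse lay below the highest vehicle-treated control (over both sexes -0.81, SE 0.42, edgeR adjusted p = 0.297). *Csf1* (-0.17, SE 0.21, adjusted p = 0.681) and *Cx3cl1* (-0.14, SE 0.17, adjusted p = 0.661) had the smallest fitted changes.

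The male counts under NR turned on replicate 1 of the NR-treated Alport males. Without it edgeR called 3 of the 10 genes in males, *Ccl5* (-2.19, adjusted p = 0.0261), *Cxcl16* (-0.94, adjusted p = 0.0261) and *Il34* (-1.07, adjusted p = 0.0333), and 380 genes in all. Without it 4 of the 10 were called over both sexes, *Ccl5*, *Cxcl16* (-0.76, adjusted p = 0.00883), *Il34* (-0.98, adjusted p = 0.00151) and *Ccr2* (-1.27, adjusted p = 0.0278), and 2535 genes in all. Its summed tubule injury markers were 11400 CPM, against 3410 to 4870 CPM in the other 3 mice and 6730 to 8270 CPM in vehicle-treated Alport males. The interaction of sex and NR in Alport mice called 0 of the 10 genes by edgeR, where 0% of 16189 genes were called. An unadjusted p under 0.05 was found for 0 of the 10 and 2.24% of all genes, and DESeq2 called 1 gene, none of the 10. Without NR-treated male replicate 1 edgeR also called 0 of the 10. With every mouse kept, macrophage markers under NR were 298 to 1190 CPM in Alport males and 216 to 745 CPM in Alport females, with 0 of 17 called over both sexes. Of the other 29 chemokine ligands tested over both sexes 2 were called, both lower, *Ccl28*, a mucosal chemokine (-2.59, SE 0.43, edgeR adjusted p = 0.0063), and *Cxcl13*, a B cell attractant (-1.47, SE 0.31, edgeR adjusted p = 0.0234). *Ccl28* was also lower on NR in control males (-2.23, SE 0.24, edgeR adjusted p = 0.00237), and in control females it did not pass (-1.06, SE 0.35, edgeR adjusted p = 0.0945).

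**Figure D4:**
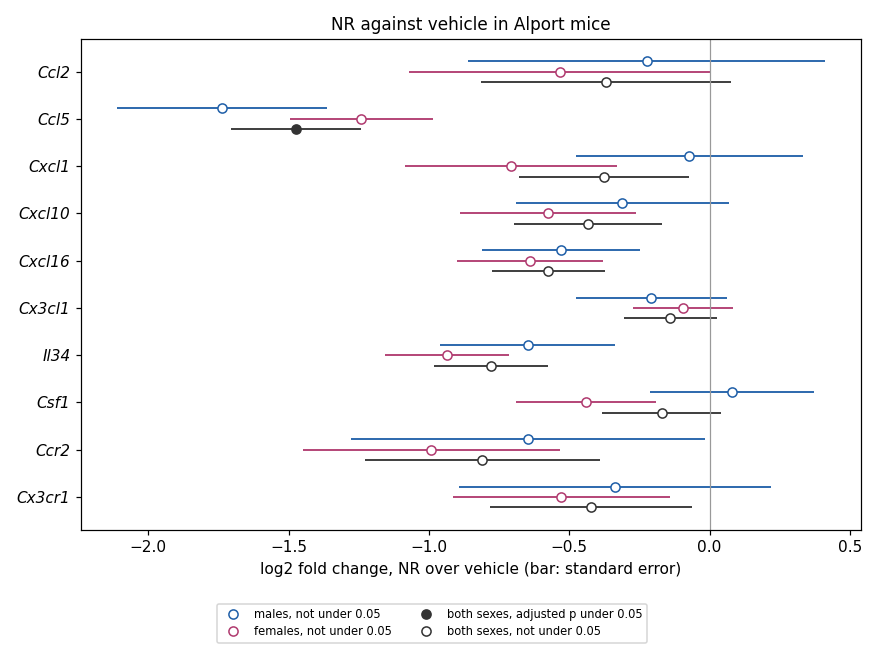
Log2 fold change of NR over vehicle in Alport mice for each gene, in males, females and both sexes with sex as a covariate, with the standard error as a bar and filled points for an adjusted p under 0.05. The only filled point is Ccl5 over both sexes at -1.47, and every point except Csf1 in males (0.08) lies left of 0.

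NR-treated Alport mice were also set against vehicle-treated controls of the same sex. In males 9 of the 10 genes were higher by edgeR, where 21.2% of 15077 genes were called and 14.4% were called higher, and the exception was *Ccl5* (0.57, SE 0.41, adjusted p = 0.344). In females 9 of 10 were higher, where 23.5% of 15381 genes were called and 11.9% were called higher, and the exception was *Ccr2* (1.42, SE 0.56, adjusted p = 0.0979), while *Ccl5* was 2.47-fold higher (log2 1.31, SE 0.31, adjusted p = 0.0144). The log2 fold changes of *Cxcl1*, 4.36 (adjusted p = 0.00331) for males and 4.00 (adjusted p = 0.0012) for females, were the largest of the 10. Without NR-treated male replicate 1 the male count was 7, with *Il34* (0.79, adjusted p = 0.0661) and *Ccr2* (1.37, adjusted p = 0.0834) lost. Both were also lost without any 1 control male, which left 7 calls without replicate 1 and 6 without replicate 2, 3 or 4, at adjusted p from 0.0632 to 0.0907 for *Il34* and 0.0726 to 0.101 for *Ccr2*. *Cx3cl1* was the further loss without control male replicates 2 (adjusted p = 0.0554), 3 (adjusted p = 0.0513) or 4 (adjusted p = 0.0519). In females *Ccl2* was lost without NR-treated replicates 1 (adjusted p = 0.0505) or 2 (adjusted p = 0.0583) or control replicates 1 (adjusted p = 0.0579), 2 (adjusted p = 0.0666) or 4 (adjusted p = 0.0566). The female comparison of *Ccr2* passed without NR-treated replicate 4 (1.77, adjusted p = 0.0129) or control replicate 3 (1.94, adjusted p = 0.0442). These comparisons share their control mice with those of vehicle-treated Alport mice.

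In controls NR was associated with changes in males. *Il34* was 12.5, 20.6, 27.4 and 28.0 CPM on vehicle and 6.50, 7.44, 9.17 and 12.9 CPM on NR in control males, overlapping by 1 mouse, and *Csf1* was 4.84, 6.20, 6.71 and 7.57 CPM on vehicle and 8.59, 10.1, 11.1 and 12.7 CPM on NR. *Il34* fell (log2 -1.30, SE 0.27, adjusted p = 0.0307) while *Csf1* (0.75, SE 0.17, adjusted p = 0.0374) and *Cx3cl1* (0.35, SE 0.08, adjusted p = 0.043) rose by edgeR, 3 of 9 genes tested where 4.53% of 14696 genes were called (3.07% higher and 1.46% lower). *Cxcl1* did not pass the filter on low counts there. *Cx3cr1* went from 2.60 to 3.80 CPM to 4.56 to 10.6 CPM without overlap (1.06, SE 0.28, adjusted p = 0.0625), as did *Ccl2*, from 0.385 to 0.888 CPM to 1.10 to 3.66 CPM (1.57, SE 0.46, adjusted p = 0.0807), a pattern that 7.35% of genes showed in that direction. NR-treated control male replicate 2 was highest of its group in 8 of the 10 genes. Its macrophage markers summed to 244 CPM, against 161 to 173 CPM in the rest of its group. These calls were unstable: leaving out 1 mouse gave 0 to 5 calls, with 0 without any of vehicle-treated replicates 1, 2 and 4 or NR-treated replicate 3, 1 without vehicle-treated replicate 3 or NR-treated replicates 1 or 2, and 5 without NR-treated replicate 4. Tubule injury markers (5 of 8 higher, 966 to 2280 CPM against 801 to 940 CPM) and endothelial markers (9 of 10 higher, 774 to 1040 CPM against 524 to 573 CPM) also rose in these mice, and 3 of 17 macrophage markers did, and their part in the 3 calls was not tested.

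In control females NR moved none of the 9 genes tested past the threshold by edgeR or DESeq2, where 6.18% of 14951 genes were called. An unadjusted p under 0.05 was found for 0 of the 9 and for 22.8% of all genes. *Csf1* came closest (-0.24, SE 0.13, edgeR adjusted p = 0.278). *Il34* was 4.66 to 6.90 CPM on vehicle and 5.03 to 7.97 CPM on NR (0.13, SE 0.18, adjusted p = 0.718). Whether the NR effect in controls differed between the sexes was not tested.

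Mouse by mouse within groups, the 10 genes were positively correlated in every pair, with *Ccl5* among the lower values. Pearson's r of log2 CPM after subtracting group means over the 32 mice ranged from 0.226 to 0.917 over 45 pairs, with a median of 0.667, as a description of genes that share libraries and depth. A background of pairs of other genes is not given here. The pairs with *Ccl5* had a median of 0.452 and the other 36 a median of 0.680, and without NR-treated male Alport replicate 1 the medians were 0.244 and 0.654. *Ccl5* rested on 12 to 34 counts in controls and 18 to 83 counts in NR-treated Alport mice. *Cxcl1* and *Ccl2* were also low in vehicle-treated controls, at 3 to 52 counts. The part of low counts in these values of r was not tested. The highest pair was *Ccl2* with its receptor *Ccr2* (0.917, and 0.894 without that library), and *Ccr2* with *Cx3cr1* was 0.902 (0.857 without it). The CSF1R ligands *Il34* and *Csf1* reached 0.564, and 0.383 without that library. Against the summed macrophage markers r was highest for *Cx3cr1* (0.926, and 0.882 without that library) and *Ccr2* (0.914 and 0.875). It was 0.900 and 0.840 for *Cxcl16*, 0.849 and 0.809 for *Ccl2*, 0.827 and 0.716 for *Cx3cl1*, 0.787 and 0.677 for *Csf1* and 0.710 and 0.578 for *Il34*. The lowest were *Cxcl1* (0.609 and 0.513), *Cxcl10* (0.596 and 0.642) and *Ccl5* (0.550 and 0.353). Against the summed tubule injury markers, over all 32 mice, r ran from 0.336 for *Ccl5* to 0.828 for *Cxcl16*. Against the summed lymphocyte markers it ran from 0.41 for *Cxcl10* to 0.629 for *Ccr2*, with *Cxcl1* at 0.62, above its value for macrophage markers.

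**Figure D5:**
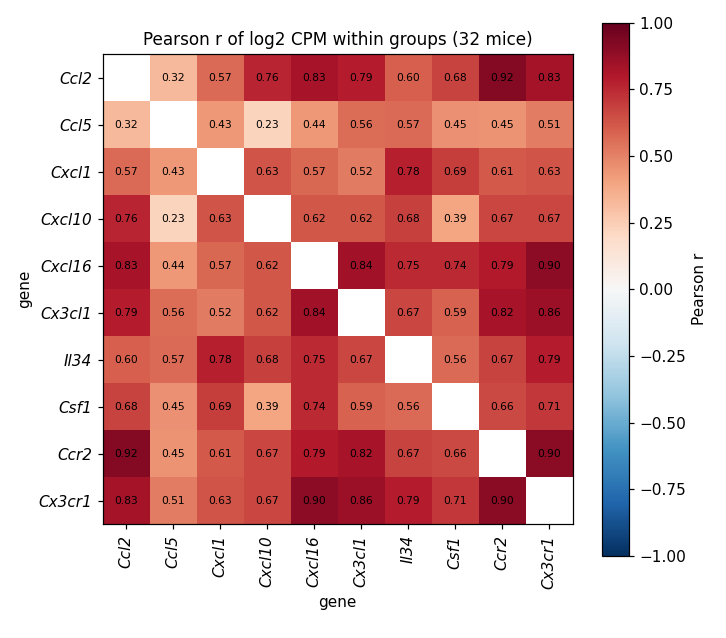
Pearson's r between each pair of the 10 genes, from log2 CPM after subtracting group means over 32 mice, on a scale from -1 (blue) to 1 (red). The row of Ccl5 is the palest, with r from 0.23 to 0.57, and the block of Ccl2, Ccr2, Cx3cr1, Cxcl16 and Cx3cl1 is the darkest.

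Among 14920 genes at 1 CPM or more in at least 4 mice, the 3 most like *Ccl2* in this measure were *Ccr2*, *Irf2* (0.916) and *C3ar1* (0.913), for *Ccr2* *Slamf9* (0.944), *Il27ra* (0.936) and *Dock10* (0.929), and for *Cx3cr1* *Col15a1* (0.941), *Col1a1* (0.938) and *Cyth4* (0.938). *Cx3cl1* was nearest to the collagens *Col1a2* (0.924) and *Col15a1* (0.920) and to *P3h3* (0.911), and *Cxcl16* to *Fcgr1* (0.937), *Icam1* (0.926) and *Tgfb1* (0.923). *Il34* was nearest to *Pik3cg* (0.851), *Myo1g* (0.843) and *Spi1* (0.840), and *Csf1* to *Tpm1* (0.865), *Vim* (0.863) and *Anxa2* (0.855). *Cxcl1* was nearest to *Serpina3g* (0.807), *Bub1* (0.801) and *Kif22* (0.799), *Cxcl10* to *Clec10a* (0.778), *Cd72* (0.768) and *Nfkb2* (0.767), and *Ccl5* to *Ap1s2* (0.819), *Etl4* (0.809) and *Naip6* (0.805). Without NR-treated male Alport replicate 1, r of these same pairs ranged from 0.726 for *Ccl5* with *Naip6* to 0.924 for *Ccr2* with *Slamf9*.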

How the data were processed

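Kidney cortex RNA was poly(A) selected, prepared with the NEBNext Ultra II kit and sequenced by a service laboratory. Per the authors, reads were processed with BioJupies, and their processing notes name genome build mm10. Aligner version, annotation and strand setting were not given in the sources used here. The deposited values used here are raw counts per gene, not normalized, for 32 mice. A second deposited table on a log10 scale was not used. Counts from 16621944 to 27778797 per library limit precision mainly for genes at a few counts. The 48 pairs of libraries within groups differed by more than sampling noise (lowest chi-square per degree of freedom 7.96), so each was kept as a replicate.

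Each comparison was fitted in edgeR 4.0.16 (R 4.3.3) on its own mice, with filterByExpr (minimum count 10), TMM scaling, the quasi-likelihood F test and Benjamini-Hochberg adjustment over all genes tested, at a threshold of 0.05. Levels are CPM on TMM-scaled libraries. The fit was tested on simulated data with few genes changed: for Alport against control in males, 178 of 197 changed genes were found with 12 false calls among 15178 genes. For NR in Alport females 155 of 196 were found with 5 false calls, for NR over both sexes 167 of 198 with 9, and for sex by genotype 148 of 197 with 12. On the same simulated data DESeq2 found 181 of 197 with 36 false calls for Alport males and 170 of 196 with 39 for NR in Alport females. It found 174 of 198 with 34 for NR over both sexes and 157 of 197 with 29 for sex by genotype. Calls made by DESeq2 alone are therefore less certain than the threshold of 0.05 implies. So few changed genes do not test the fit in a comparison where 51% of genes were called. Alternatives were RLE scaling, DESeq2 1.42.0, no count filter, 1 fit of all 32 mice, replicate number as a block and leaving out each mouse. Comparisons of females with males, and correlations without NR-treated male Alport replicate 1, were added after the values had been seen. The members and lists were chosen with earlier results of these data known. All 10 genes are named, and from each other list the 4 genes with the largest mean change over both sexes among those called in both, with any gene a result turned on. A gene that this rule names is not reported here. *Ccl28*, *Cxcl13*, *Cxcl15*, *Mif*, *Mertk*, *Adam10*, *Adam17*, *Csf1r* and *Cxcr2* were named for their role or after their values were seen. For likeness, the 3 genes with the highest r are named. Gene coordinates and promoters are from RefSeq (GRCm38.p6).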

Additional observations from a re-analysis of the deposited data

Results flagged for a closer look

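In 6 of 80 combinations of gene and group, 1 mouse lay apart from the other 3 by Dixon's criterion, where chance alone gives about 1 in 20. The same mouse accounted for several of these, namely NR-treated male Alport replicate 1, with *Ccl5* at 3.07 CPM (1.04 to 1.34 CPM in the others), *Cxcl16* at 156 CPM (58.0 to 73.3 CPM) and *Il34* at 89.2 CPM (34.2 to 42.7 CPM). Vehicle-treated control male replicate 4 had *Cxcl1* at 1.33 CPM (0.296 to 0.470 CPM in the others) and *Cxcl10* at 2.71 CPM (1.37 to 1.54 CPM). Vehicle-treated Alport female replicate 2 had *Ccr2* at 25.4 CPM, below the 43.5 to 45.9 CPM of the others.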

How the results depend on the processing

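Of 1644 recomputed fold changes in the planned comparisons, 1536 kept their direction and side of the threshold, 40 changed sign past the threshold in neither fit, 44 lost significance, 24 gained it and none reversed as a call. In the added comparisons of the sexes 226 of 247 kept both, 4 changed sign past the threshold in neither fit and 17 lost significance. All 10 genes were called for Alport against control in each sex under every alternative. Of 32 same-number pairs of mice, 5 had r over 0.1 (-0.167 to 0.261). Pairs of different number were not computed, so whether replicate numbers pair mice was not settled. Genes called of the 10, for NR in Alport males, were 1 by DESeq2 and 1 with all 32 mice in 1 fit, and 0 to 3 with 1 mouse left out. For NR in control males they were 5 by DESeq2, 1 with all 32 mice, 1 with the replicate block and 0 to 5 with 1 mouse left out. For NR in Alport females they were 2 by DESeq2, 1 with all 32 mice and 0 to 1 with 1 mouse left out. For NR in Alport mice of both sexes they were 2 by DESeq2, 3 with all 32 mice, 2 with the replicate block (*Il34* added, -0.85, adjusted p = 0.0376) and 1 to 4 with 1 mouse left out. For sex by genotype they were 0 to 1 with 1 mouse left out. For females against males they were 2 with all 32 mice and 2 to 4 with 1 mouse left out in controls, and 0 with all 32 mice, 0 with the replicate block and 0 to 1 with 1 mouse left out in Alport mice. With 1 mouse left out, NR-treated Alport against vehicle-treated control gave 6 to 9 in males (6 without control replicate 2, 3 or 4) and 8 to 10 in females. With the replicate block it gave 8 in males (*Ccr2* lost, adjusted p = 0.0892) and 7 in females (*Ccl2* and *Ccl5* lost, adjusted p = 0.08 and 0.0563).

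Counts over all genes moved more. For NR in Alport mice they were 0 in males against 62 by DESeq2, 88 with all 32 mice and 0 to 380 with 1 mouse left out, 75 in females against 728, 253, 116 without the count filter and 9 to 166, and 239 over both sexes against 902, 1016 and 120 to 2535. For NR in controls they were 666 in males against 1654 by DESeq2, 309 with the block and 74 to 1886, and 924 in females against 1493, 18 with all 32 mice, 371 with the block and 395 to 809. For NR-treated Alport against control they were 3199 in males against 6819 with all 32 mice and 1446 to 3970, and 3615 in females against 2292 with the block and 2288 to 4800. For sex by genotype they were 86 against 52 with RLE scaling, 260 by DESeq2, 5 with all 32 mice, 46 for changes of at least 2-fold and 23 to 93. For females against males they were 4756 in controls against 2799 with all 32 mice, and 607 in Alport mice against 1367 by DESeq2, 375 with all 32 mice, 351 with the block and 265 to 906. The cause was not tested. Depth limits most for *Cxcl1* and *Ccl2* in vehicle-treated controls, at 3 to 52 counts, and for *Ccl5*, at 12 to 34 counts in controls. In NR-treated Alport mice *Ccl5* rested on 18 to 80 counts in males and 36 to 83 counts in females.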
